A study of Mus musculus with 6 samples.

Results

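The genes described are 34 immediate early and heat shock genes of blood endothelial cells from the mouse intestine. They were taken from a fixed list of symbols, and each gene is represented by a probe set that the platform annotation gives to that gene alone, or by the one with the highest mean over the 6 arrays where it has several. Of the 34 genes, 33 had such a probe set, as did 22180 genes in all. All 33 lay above background, as did 15289 of the 22180. Background was set at 4.12, the 90th percentile over 1434 chemosensory receptor genes. Fosl1 was the exception, since its probe set also belongs to Ccdc85b, and it is not described further. The 33 genes comprise 27 immediate early genes and 6 heat shock genes.

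The knockout (KO) mice carried floxed Apc and a tamoxifen-inducible Cre under the villin promoter (Apcfl//fl; Villin-CreERT2), and the control mice are labelled WT with floxed Apc (Apcfl//fl) and no Cre named. All were adults of a mixed C57BL/6 x 129 background, all were given tamoxifen daily over 5 days, with tissue collected on day 6. The villin promoter is active in intestinal epithelium, so the deletion of Apc, a negative regulator of Wnt signalling, is aimed at epithelial cells and not at the sorted endothelium. The intestine was digested with collagenase IV, and live cells with CD31 and without CD45, EpCAM or gp38 were sorted. RNA from 3 KO and 3 control samples, labelled as biological replicates, was amplified and hybridised to 1 array each; whether a sample is 1 mouse or a pool is not given in the sources used here. Values are log2 levels, and changes are KO minus control on the log2 scale. The ± after a mean is the SD over 3 arrays and the ± after a change is its standard error.

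Pecam1, which encodes CD31, averaged 11.43 ± 0.018 in KO cells and 11.43 ± 0.070 in control cells. Epcam lay below the background level of 4.12 on the 3 KO arrays and in control 1, but at 7.20 in control 2 and 6.24 in control 3. Ptprc, the gene of CD45, lay between 3.82 and 4.43 on the KO arrays and between 4.16 and 4.78 on the control arrays, and Pdpn, the gene of gp38, between 5.07 and 5.18 on the KO arrays and between 5.17 and 5.79 on the control arrays. Correlations over the 15289 genes were 0.979 to 0.984 within KO, 0.977 to 0.984 within control and 0.964 to 0.974 across groups. In sorted bulk cells, a lower value from fewer cells of a type and one from less RNA per cell cannot be told apart.

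Immediate early genes are switched on within minutes of a stimulus, without new protein synthesis, by kinase cascades that act on factors already bound at their promoters. Many encode transcription factors, such as the AP-1, EGR and NR4A families, and others encode the phosphatases and RNA-binding proteins that end the response. Heat shock genes encode chaperones that keep proteins folded and are driven by the factor HSF1. Both groups are known to be induced while tissue is being dissociated, as well as by growth factors, shear stress and inflammation in living vessels.

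Most of the 33 genes had lower values in KO cells, but few of the differences passed the test. Jun and Egr1 fell, 0 genes rose, and 31 did not pass an adjusted p of 0.05 in limma, a linear model fitted to all genes together with p-values adjusted over the 15289 genes. Jun and Egr1 are 6.06% of the 33 genes. Of all genes tested, 2.57% passed in either direction, 1.47% lower and 1.1% higher. The change was negative for 28 of the 33 genes (84.8%), against 53.3% of all genes tested, and its median was -0.21, against -0.017 over all genes. At an unadjusted p of 0.05, 14 of the 33 were lower and 0 higher, against 9.23% lower and 7.2% higher of all genes. In 12 of the 33 genes (36.4%) the 3 KO arrays all lay below the 3 control arrays, against 12.3% of all genes, and in 0 genes did they all lie above, against 9.78%. All 14 and all 12 were immediate early genes. By role, the median change was -0.41 for 3 EGR factors, -0.26 for 8 AP-1 genes, -0.23 for 4 feedback genes, -0.15 for 9 other early regulators, -0.16 for 6 heat shock genes and -0.00015 for 3 NR4A receptors. The genes respond to shared signals and are not independent of each other. Averaged over the 27 early genes, the deviation from the control mean was -0.28, -0.22 and -0.16 on the KO arrays, against 0.27, -0.18 and -0.10 on the control arrays. Control 2 thus lay within the range of the KO arrays, and control 1 stood above the rest.

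**Figure D1:**
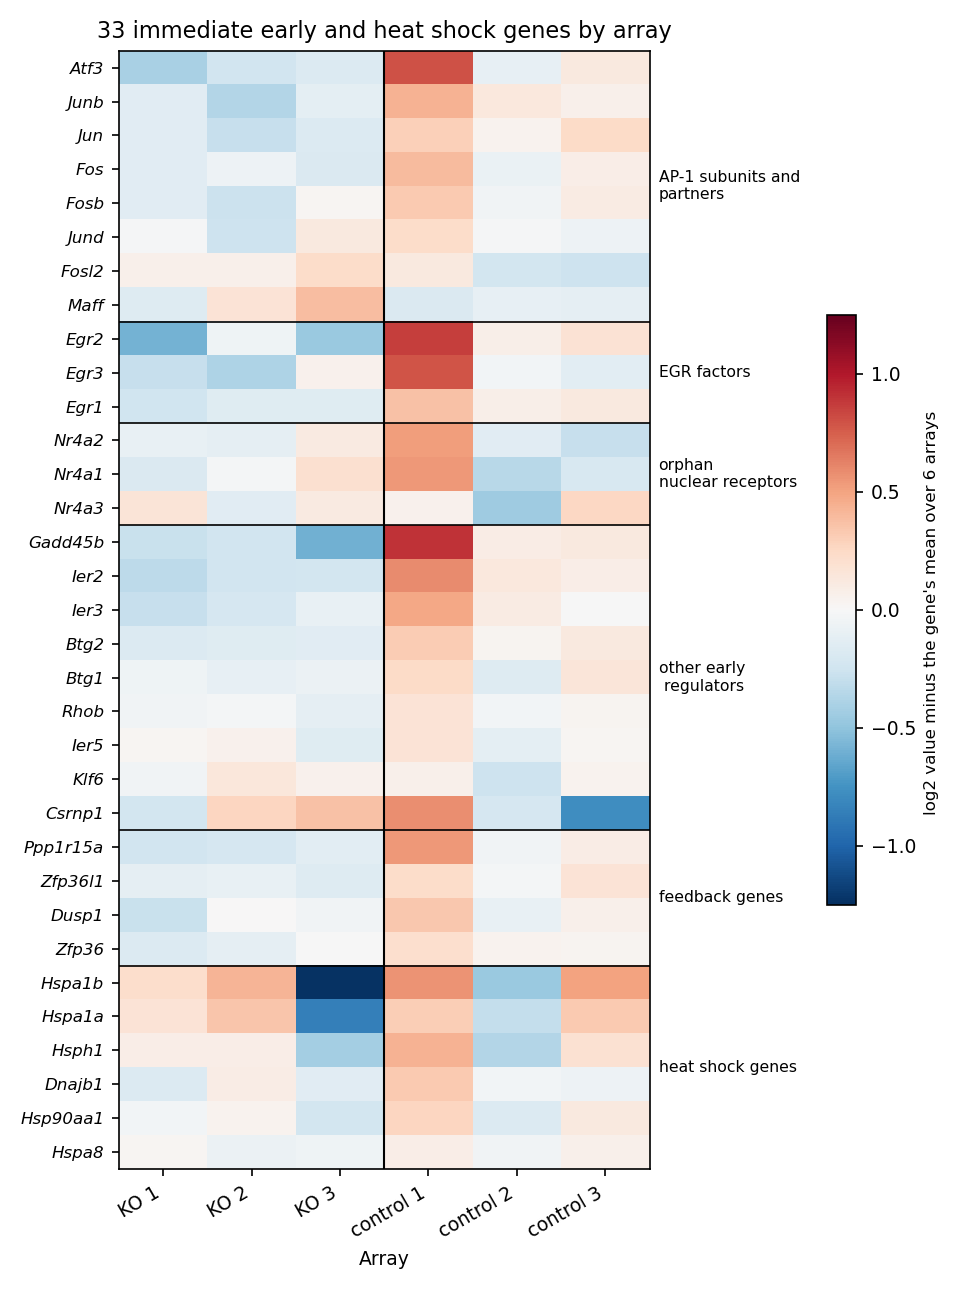
Each row is 1 of the 33 genes, grouped by role, and each column is 1 array, with KO arrays left of control arrays. Colour gives the log2 value minus that gene's mean over the 6 arrays. Control 1 is the highest array for 28 of 33 genes, and Hspa1a, Hspa1b and Hsph1 are low on KO 3 and control 2.

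AP-1 is a dimer of a Jun protein with a Fos, Jun or ATF protein. Jun, which encodes the founding subunit, was at 11.11, 10.96 and 11.08 in KO cells, against 11.55, 11.29 and 11.49 in control cells. The groups did not overlap, and control 2 was the lowest of the controls. Jun fell 1.31-fold (-0.39 ± 0.075, limma adjusted p = 0.0318). The call was lost without KO 1 (adjusted p = 0.0654), KO 2 (0.0902), KO 3 (0.101), control 1 (0.0696) or control 3 (0.123), and without the variance trend of the fit (0.158), while the change stayed between -0.48 and -0.34 in the 15 alternatives run.

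Junb encodes a second Jun protein, which can oppose Jun. It was at 10.46, 10.24 and 10.48 in KO cells, against 11.04, 10.74 and 10.67 in control cells. The groups did not overlap either, with control 1 the highest array (-0.42 ± 0.11, adjusted p = 0.0781). Jund, the third Jun gene and the one that is usually expressed without a stimulus, had overlapping groups (-0.10 ± 0.11, adjusted p = 0.698), also on its second probe set (-0.19 ± 0.12).

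Fos, the prototype immediate early gene, was at 10.06, 10.14 and 10.03 in KO cells, against 10.60, 10.13 and 10.29 in control cells. KO 2 lay level with control 2, so the groups overlapped, and control 1 alone stood above 10.3 (-0.26 ± 0.11, adjusted p = 0.278). Fosb, a close relative of Fos, was at 10.05, 9.92 and 10.21 in KO cells, against 10.52, 10.15 and 10.29 in control cells. KO 3 lay above control 2, and control 1 was again the highest array (-0.26 ± 0.11, adjusted p = 0.268). Fosl2, another Fos family gene, had a change of the opposite sign, with 8.97, 8.97 and 9.14 in KO cells and 9.03, 8.68 and 8.65 in control cells (0.24 ± 0.12, adjusted p = 0.345).

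Atf3 encodes a stress-induced partner of Jun. It was at 9.83, 9.99 and 10.06 in KO cells, against 11.02, 10.12 and 10.36 in control cells. The groups did not overlap, but the gap between KO 3 and control 2 was small beside the distance from control 1 to the other controls (-0.54 ± 0.19, adjusted p = 0.203). Maff, a small MAF protein with no activation domain, was higher in KO 2 and KO 3, at 7.43 and 7.64, than on any control array, where it lay between 7.07 and 7.16, and KO 1 was at 7.10 (0.26 ± 0.15, adjusted p = 0.428). Maff was the only one of the 33 genes in which control 1 lay below the mean of controls 2 and 3.

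The EGR factors are zinc finger proteins induced by ERK signalling. Egr1 was at 11.62, 11.71 and 11.72 in KO cells, against 12.24, 11.94 and 11.99 in control cells. The groups did not overlap, and the KO arrays lay within 0.095 of each other. Egr1 fell 1.30-fold (-0.37 ± 0.076, limma adjusted p = 0.0406). The call held without control 1 (-0.28, adjusted p = 0.0379) and was lost without KO 1 (0.126), KO 2 (0.0902), KO 3 (0.119) or control 3 (0.0951), with a replicate block (0.0593), with arrays centred on their median (0.0584), with quantile normalization repeated (0.0624) and without the variance trend (0.185).

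Egr2 was at 7.79, 8.33 and 7.92 in KO cells, against 9.25, 8.45 and 8.56 in control cells. It had one of the 2 most negative changes on the list, -0.74 ± 0.21, but the spread within both groups was wide and it did not pass (adjusted p = 0.118). Egr3 was at 7.17, 7.08 and 7.52 in KO cells, against 8.25, 7.43 and 7.33 in control cells. Its groups overlapped, and control 1 lay 0.87 above the mean of the other controls (-0.41 ± 0.24, adjusted p = 0.438).

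The NR4A genes encode orphan nuclear receptors whose activity is set by their amount. Nr4a1 averaged 10.75 ± 0.19 in KO cells and 10.75 ± 0.48 in control cells (standard error of the change 0.20), the controls being at 11.29, 10.41 and 10.55. Control 1 was the highest array, while controls 2 and 3 were the lowest. Nr4a2 also had control 1 highest and controls 2 and 3 lowest, with 8.20, 8.18 and 8.40 in KO cells and 8.81, 8.15 and 8.001 in control cells (adjusted p = 0.916). Nr4a3 had overlapping groups too (0.086 ± 0.18, adjusted p = 0.863), and there control 3, at 7.82, was the highest array.

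Ier2 encodes a small nuclear protein of growth factor responses. It was at 9.52, 9.60 and 9.61 in KO cells, against 10.43, 9.97 and 9.92 in control cells. The KO arrays lay close together and below all controls (-0.53 ± 0.13, adjusted p = 0.0642). Btg2, an antiproliferative gene that also responds to p53, was at 11.06, 11.08 and 11.09 in KO cells, against 11.55, 11.26 and 11.35 in control cells (-0.31 ± 0.073, adjusted p = 0.0627). Gadd45b, which activates stress kinases upstream of p38 and JNK, was at 9.50, 9.53 and 9.18 in KO cells, against 10.67, 9.87 and 9.90 in control cells. Its change of -0.74 ± 0.20 was the most negative on the list, and it did not pass (adjusted p = 0.1).

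Ier3, a stress-responsive gene linked to cell survival, was at 10.82, 10.89 and 11.01 in KO cells, against 11.59, 11.21 and 11.10 in control cells. The groups did not overlap, KO 3 lying just under control 3 (-0.39 ± 0.12, adjusted p = 0.126). Btg1, Rhob, a small GTPase of endosomes that is itself induced early, Ier5 and Klf6 had changes between -0.15 and 0.098, each with overlapping groups and adjusted p-values from 0.552 to 0.885. Csrnp1, a nuclear protein first known as an AXIN1-induced gene, had the widest control range of the 33 genes. It was at 7.81, 8.31 and 8.40 in KO cells, against 8.62, 7.83 and 7.26 in control cells. Its 3 controls spanned 1.36, wider than the whole range of the KO arrays, and it did not pass (0.27 ± 0.30, adjusted p = 0.727).

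Among the genes that end the response, Zfp36l1 and Zfp36 encode proteins that bind AU-rich elements and promote mRNA decay, and Ppp1r15a encodes the stress-induced subunit of the phosphatase that reverses translational arrest. Zfp36l1 was at 11.41, 11.43 and 11.36 in KO cells, against 11.75, 11.49 and 11.69 in control cells (-0.25 ± 0.069, adjusted p = 0.111). Zfp36 was at 12.45, 12.51 and 12.61 in KO cells, against 12.83, 12.66 and 12.65 in control cells (-0.19 ± 0.061, adjusted p = 0.154). Ppp1r15a was at 10.31, 10.34 and 10.41 in KO cells, against 11.09, 10.51 and 10.64 in control cells (-0.39 ± 0.13, adjusted p = 0.173). In all 3 the KO arrays lay below the controls, by a small margin for Zfp36, and control 1 was the highest array. Zfp36l1 had a second probe set with a change of -0.33. Dusp1, the phosphatase that inactivates p38 and JNK, was at 10.60, 10.88 and 10.82 in KO cells, against 11.21, 10.78 and 10.94 in control cells. Its groups overlapped, since control 2 lay below KO 2 and KO 3 (-0.21 ± 0.11, adjusted p = 0.415).

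**Figure D2:**
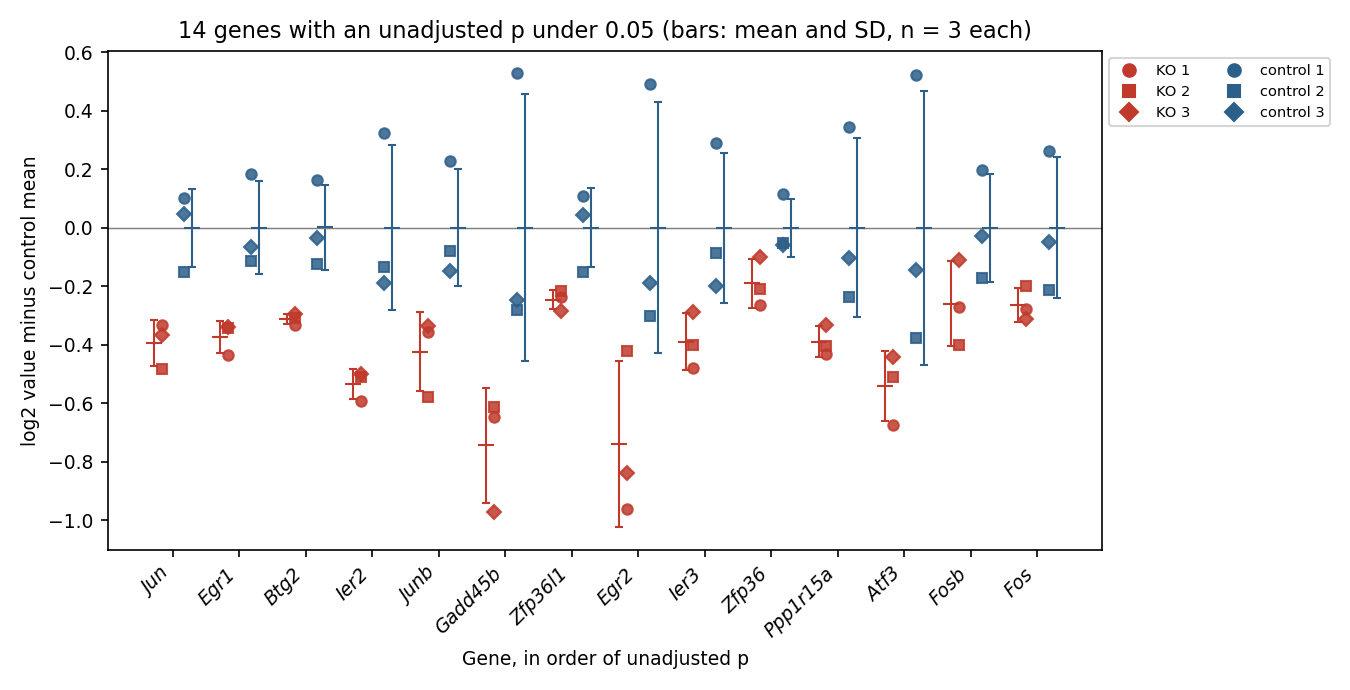
The 14 genes with an unadjusted p under 0.05 are shown in order of p, each array as a log2 value minus the control mean, KO in red to the left of control in blue. Bars give the mean and SD of 3 arrays; control 1, the blue circle, is the highest point for each of these 14 genes.

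Promoters are shown because the genes are known for shared induction, and the letters below are those that kinase-driven and HSF1-driven factors are known to read. RefSeq promoter windows (GRCm38.p6) were available for 28 of the 34 genes, the others being Fosl1, Egr1, Egr3, Ier2, Hspa8 and Hsp90aa1. The 250 bases before each annotated start were searched on both strands. The cAMP response element core TGACGT was found in 9 of 24 early genes (37.5%), against 7.29% of all 27025 genes with a window, and its variant TGACATCA in 3 of 24 (12.5%), against 3.41%. The EGR motif GCGNGGGCG was found in 8 of 24 (33.3%), against 5.33%, the CArG box of serum response factor in 2 of 24 (8.33%), against 1.62%, and the AP-1 motif TGANTCA in 2 of 24 (8.33%), against 7.82%. Promoters were not matched for base composition, and genes with several windows had more bases searched.

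The 170 bases before the start are printed 5′ to 3′ on the gene's strand, with the named motif in capitals. Jun (chr4:95052223-95052392, minus strand) carries TGACATCA, and Fos (chr12:85473720-85473889, plus strand), Dusp1 (chr17:26508473-26508642, minus strand) and Btg2 (chr1:134079156-134079325, minus strand) carry TGACGT, which in the last pair is matched on both strands so that the matches overlap. Zfp36 (chr7:28379229-28379398, minus strand) carries a CArG box.
Jun: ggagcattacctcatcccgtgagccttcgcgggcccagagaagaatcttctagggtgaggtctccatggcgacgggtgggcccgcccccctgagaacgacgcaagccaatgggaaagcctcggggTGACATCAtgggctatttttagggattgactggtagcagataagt
Fos: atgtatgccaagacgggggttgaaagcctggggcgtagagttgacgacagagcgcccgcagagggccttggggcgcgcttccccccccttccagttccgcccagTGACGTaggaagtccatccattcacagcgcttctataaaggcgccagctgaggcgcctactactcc
Dusp1: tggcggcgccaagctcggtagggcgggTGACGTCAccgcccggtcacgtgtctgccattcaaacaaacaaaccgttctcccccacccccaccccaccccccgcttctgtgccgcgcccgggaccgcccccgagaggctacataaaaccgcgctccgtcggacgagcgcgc
Btg2: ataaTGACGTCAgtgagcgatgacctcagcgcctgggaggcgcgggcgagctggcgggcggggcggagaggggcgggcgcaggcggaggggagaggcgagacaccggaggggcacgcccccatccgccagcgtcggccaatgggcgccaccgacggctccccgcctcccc
Zfp36: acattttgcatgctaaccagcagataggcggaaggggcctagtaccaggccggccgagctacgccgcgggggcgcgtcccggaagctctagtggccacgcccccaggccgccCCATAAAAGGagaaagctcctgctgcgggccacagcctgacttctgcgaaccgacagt
Jun and Btg2 had KO arrays below all controls and Fos and Dusp1 did not, so genes with a related motif differed in whether their groups overlapped. A match describes letters and not bound sites.

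In most of these genes, the controls differed among themselves more than the KO samples did. The SD over controls exceeded the SD over KO arrays in 29 of the 33 genes (87.9%), against 46.0% of all genes tested. The 29 were 25 of the 27 early genes and 4 of the 6 heat shock genes. In Jund, Maff, Hspa1a and Hspa1b the KO arrays had the larger SD, at 0.91 against 0.57 for Hspa1b. The median SD over the 33 genes was 0.12 for KO and 0.22 for control. Over all genes those medians were 0.16 for KO and 0.15 for control. Control 1 was the highest of the 6 arrays for 28 of the 33 genes (84.8%), against 19.8% of all genes, and lay above the mean of controls 2 and 3 in 32 of the 33, against 53.1% of all genes. Its median distance above that mean was 0.34, against 0.016 over all genes. For Csrnp1 (1.08), Egr3 (0.87), Nr4a1 (0.81), Gadd45b (0.79), Atf3 (0.78), Egr2 (0.74) and Nr4a2 (0.74), the distance was above the 99th percentile of all genes. The labels give the same collagenase digestion for both groups and no digestion time for any sample, and the part of digestion in this spread was not tested.

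Without control 1, 25 of the 33 genes had a negative change, against 51.7% of all genes, and the median change was -0.12. At an unadjusted p of 0.05, 12 of the 33 genes were then lower in KO, against 7.8% of all genes, and 3 were higher, against 6.18%. The 3 were Fosl2 (0.36 ± 0.10, adjusted p = 0.122), Csrnp1 (0.63 ± 0.22, adjusted p = 0.230) and Nr4a1 (0.27 ± 0.11, adjusted p = 0.312). Egr1 was the single gene that passed, against 2.48% of all genes called. Leaving out control 1 moved 6 of the 14 genes with an unadjusted p under 0.05 by over 1.5 times. Without it Atf3 was at -0.28, Fos at -0.13, Ppp1r15a at -0.22, Fosb at -0.16 and Ier3 at -0.25, against -0.54, -0.26, -0.39, -0.26 and -0.39 with all arrays, and Gadd45b was the sixth. Ier2 was then at -0.37 ± 0.081 (adjusted p = 0.0559), Gadd45b at -0.48 ± 0.12 (adjusted p = 0.0864) and Btg2 at -0.23 ± 0.060 (adjusted p = 0.102).

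**Figure D3:**
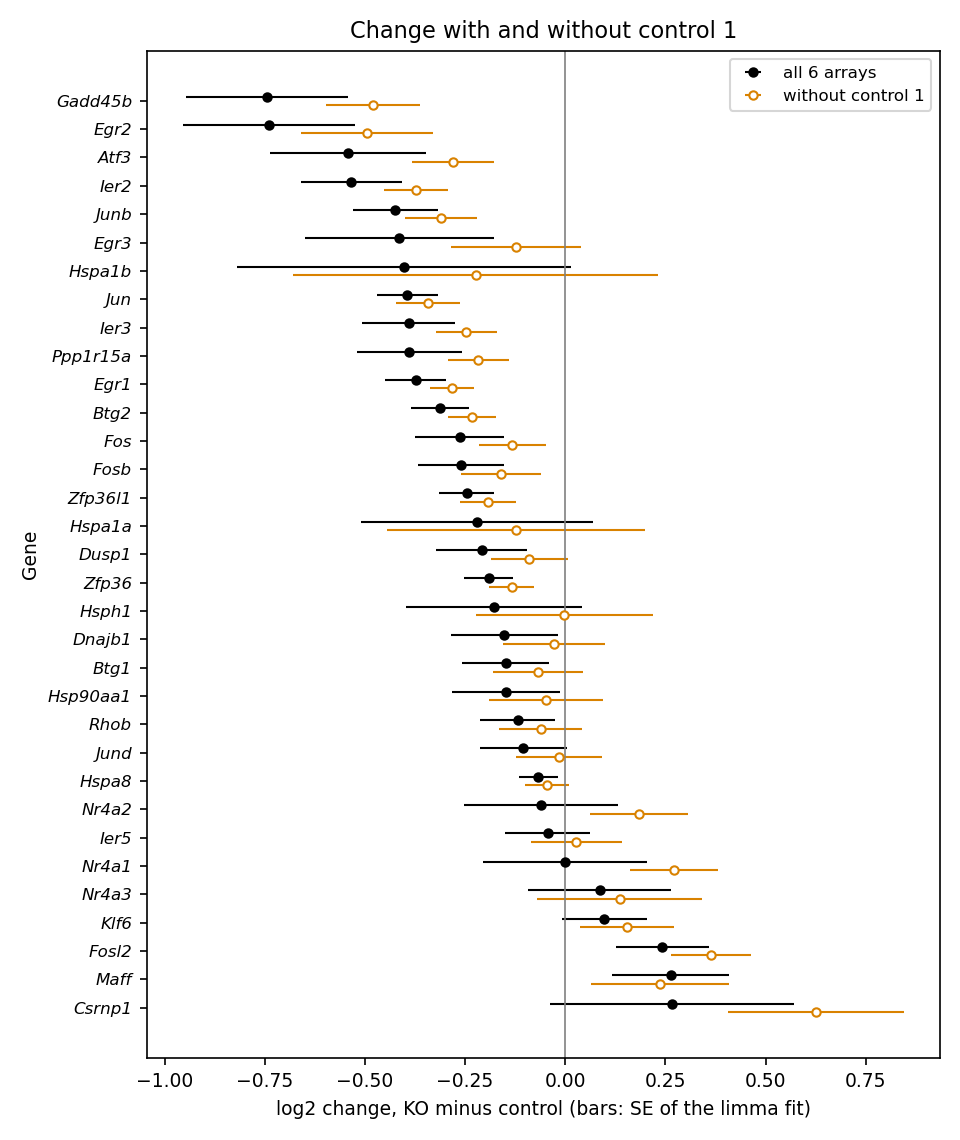
The log2 change of each of the 33 genes, KO minus control, is plotted with its standard error, with all 6 arrays (filled) and without control 1 (open). Leaving out control 1 moves 32 of the 33 estimates to the right, Gadd45b from -0.74 to -0.48 and Csrnp1 from 0.27 to 0.63.

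Control 1 was the highest array in 5 of the 6 heat shock genes (83.3%), as it was in 23 of the 27 early genes (85.2%). Hspa1a, Hspa1b and Hsph1, and by a smaller margin Hsp90aa1, were also low on KO 3 and control 2. Hspa1a and Hspa1b encode the stress-inducible HSP70 and are near-identical copies, so their probe sets may share signal and the 2 genes cannot be fully told apart; a probe set assigned to both was left out. Hspa1a was at 11.05, 11.22 and 10.03 in KO cells, against 11.18, 10.57 and 11.20 in control cells. Hspa1b was at 11.14, 11.35 and 9.68 in KO cells, against 11.48, 10.46 and 11.43 in control cells. KO 3 and control 2 were low for both genes, and the other 4 arrays lay close together. Neither differed beyond this spread, with changes of -0.22 ± 0.29 (adjusted p = 0.765) for Hspa1a and -0.40 ± 0.42 (adjusted p = 0.693) for Hspa1b. Without KO 3 the changes had the opposite sign, 0.15 ± 0.18 and 0.12 ± 0.28.

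Hsph1, an HSP110 chaperone that recharges HSP70, was at 7.15, 7.15 and 6.65 in KO cells, against 7.51, 6.71 and 7.26 in control cells. The same pair of arrays was low (-0.18 ± 0.22, adjusted p = 0.749). Hsp90aa1, the inducible HSP90, and Dnajb1, the HSP40 co-chaperone, had changes of -0.15 ± 0.14 and -0.15 ± 0.13, with overlapping groups. Hspa8, which encodes the constitutive HSC70, varied least, with arrays between 12.47 and 12.57 in KO cells and between 12.50 and 12.62 in control cells (-0.068 ± 0.049, adjusted p = 0.550), and its 3 other probe sets had changes between -0.20 and -0.059. Of the 6 heat shock genes, 0 passed in limma and 0 had an unadjusted p under 0.05. KO 3 and control 2 were the lowest 2 of the 6 arrays in 4 of the 6 (66.7%), against 5.38% of all genes and 1 of the 27 early genes (3.7%). The 4 were Hspa1a, Hspa1b, Hsph1 and Hsp90aa1. The pair of arrays was picked from these same values, and Hspa1a and Hspa1b may share signal, so the count is a description and not a test. The median change of the 6 genes, -0.16 with all arrays, was -0.032 without KO 3 (4 negative and 2 positive), -0.047 without control 1, -0.34 without control 2 and -0.25 without KO 2, so single arrays moved it by over 1.5 times. Without KO 3 and control 2, a pair chosen after the values were seen, it was -0.18, and Hspa1b was at -0.21 ± 0.084 (adjusted p = 0.401).

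**Figure D4:**
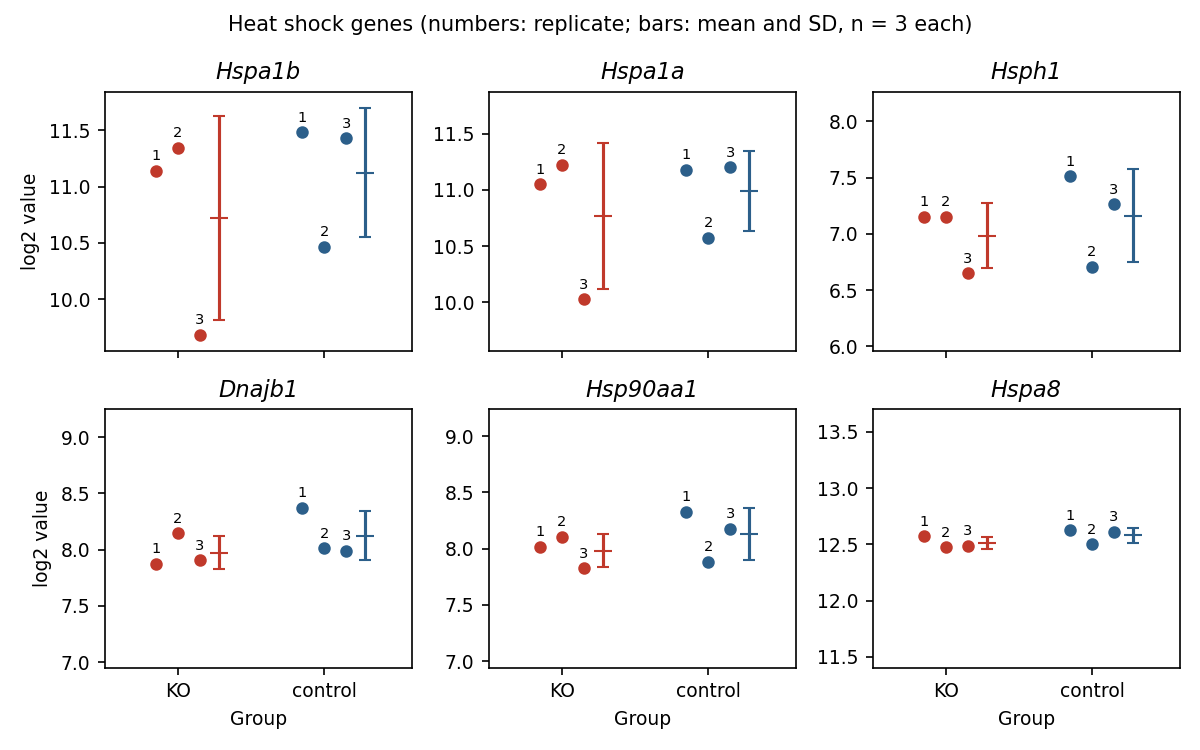
Log2 values of the 6 heat shock genes are plotted by group, with the replicate number above each point and the mean and SD of 3 arrays beside it; all panels span the same log2 range. For Hspa1a, Hspa1b, Hsph1 and, by a smaller margin, Hsp90aa1, KO 3 and control 2 lie below the other arrays of their own group.

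The promoters of the HSP70 pair are printed because both genes were low on KO 3 and control 2. The heat shock element letters GAANNTTC were found in Hspa1a and Hspa1b among 4 heat shock genes with a window (2 of 4), against 7.73% of all genes and 2 of 24 early genes (Jun and Fosl2). The inverted form TTCNNGAA, which can overlap with it, was found in Hsph1 alone among the 4 (25.0%), against 8.11%. The stretches printed for Hspa1a (chr17:34972157-34972326) and Hspa1b (chr17:34959239-34959408), both on the minus strand and with GAANNTTC in capitals, were identical at 169 of 170 bases (99.4%).
Hspa1a: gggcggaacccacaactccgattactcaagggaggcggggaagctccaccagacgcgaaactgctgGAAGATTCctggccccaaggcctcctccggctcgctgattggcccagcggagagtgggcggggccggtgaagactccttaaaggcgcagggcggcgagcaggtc
Hspa1b: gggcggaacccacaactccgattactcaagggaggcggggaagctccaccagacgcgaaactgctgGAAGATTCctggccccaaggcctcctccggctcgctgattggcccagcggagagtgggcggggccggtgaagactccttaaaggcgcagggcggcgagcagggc

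In the wider lists of related genes, 1 gene or none passed in each, where 2.57% of all genes passed in either direction. Of 40 other immediate early genes, 39 had a probe set and 38 lay above background. Trib1, a pseudokinase that directs protein degradation, rose 1.55-fold, 0 fell and 37 did not pass, with a median change of -0.084. It was at 7.79, 7.83 and 8.07 in KO cells, against 7.25, 7.28 and 7.26 in control cells (0.63 ± 0.11, adjusted p = 0.0247). Control 1 was the highest array in 17 of these 38 genes (44.7%), against 19.8% of all genes. At an unadjusted p of 0.05, 9 of the 38 were lower and 5 higher, where 9.23% of all genes were lower and 7.2% higher.

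Among 19 feedback regulators of kinase signalling, Spry4, an inhibitor of receptor tyrosine kinase signalling that ERK induces, rose 1.53-fold. It was at 10.38, 10.58 and 10.44 in KO cells, against 9.88, 9.85 and 9.84 in control cells. The groups were far apart beside their spread (0.61 ± 0.070, adjusted p = 0.00479). The other 18 genes did not pass, and the median change was 0.064. At an unadjusted p of 0.05, 4 of the 19 were lower and 1 higher, against the same shares of all genes.

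Among 36 other heat shock genes, 32 had a probe set and lay above background. Cryab, a small heat shock protein abundant in muscle, fell 2.36-fold and 31 did not pass, with a median change of -0.076. It was at 8.54, 8.25 and 8.58 in KO cells, against 9.97, 9.79 and 9.34 in control cells (-1.24 ± 0.16, adjusted p = 0.0084). Of 23 kinases and factors upstream of these genes, 18 had a probe set and lay above background, and 0 passed in limma. At an unadjusted p of 0.05, 1 of the 18 was higher and 0 were lower, against 7.2% and 9.23% of all genes. The lowest p-values there were those of Rps6ka3, an ERK-activated kinase (0.23 ± 0.096, adjusted p = 0.280), and Mapk9, which encodes a JNK (0.24 ± 0.15, adjusted p = 0.481).

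**Figure D5:**
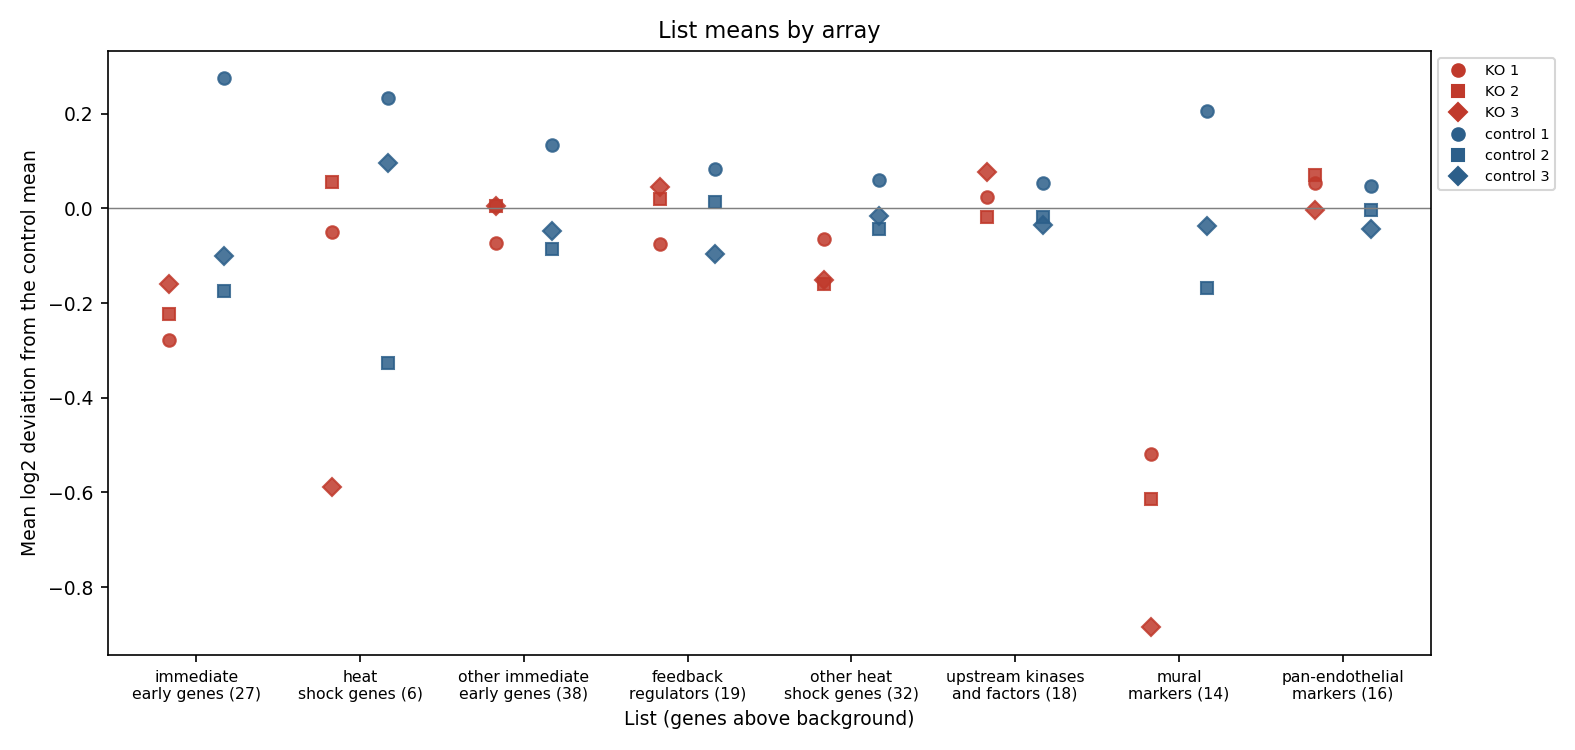
Each point is the mean over a list of genes of the log2 value minus the control mean, for 1 array, with KO in red left of control in blue. Control 1 lies highest for every list plotted except upstream kinases and factors and pan-endothelial markers. It is at 0.27 for the 27 immediate early genes, 0.23 for the 6 heat shock genes and 0.20 for mural markers. KO 3 and control 2 lie lowest for the 6 heat shock genes at -0.59 and -0.33. The mean of the pan-endothelial markers stays within 0.071 of the control mean on every array. Within that mean Cldn5 fell, and 8 of the 16 markers had all KO arrays above all controls.

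Markers of some other cells also differed between KO and control. Mural markers, of pericytes and smooth muscle, fell in 6 of 14 genes with a median change of -0.73, where 1.47% of all genes fell. Their mean log2 level was 7.46 to 7.83 on the KO arrays and 8.18 to 8.55 on the control arrays. Control 1 was the highest array for 10 of the 14 (71.4%), as it was for most immediate early genes, against 19.8% of all genes. Over the other cell type lists this share ran from 0% to 55.6%, highest in fibroblast markers (5 of 9). Abcc9 was the 1 mural marker with all KO arrays above all controls (0.49 ± 0.17, adjusted p = 0.179). Enterocyte markers fell in 13 of 15 genes, against the same 1.47% of all genes. Their median change was -3.07, which is that of Sis. Their mean level was 5.15 to 5.53 on the KO arrays and 6.94 to 8.90 on the control arrays. Control 1 was the lowest of the controls there and the highest array for 0 of the 15. No mural or enterocyte marker with a probe set was at or below background on all 6 arrays. On the 3 KO arrays, though, Sis (3.77, 3.76 and 3.89) and Slc5a1 (3.58, 3.69 and 3.74) lay below the background level of 4.12. Others, such as Apob and Reg3g, had KO arrays on both sides of it. Sis and Slc5a1 passed the filter on the mean over 6 arrays through the controls, so their changes are distances to background. The part of these cells in the lower values of Jun, Egr1, Cryab and the other genes was not tested.

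Of the other marker lists, fibroblast markers (1 of 9 lower, 0 higher) and T and NK cell markers (1 of 11 lower, 0 higher) had a gene that fell. Lymphatic endothelial markers (1 of 5) had a gene that rose. Of all genes, 1.47% fell and 1.1% rose. Unadjusted p-values in limma were under 0.05 for 3 of 9 fibroblast and 6 of 11 T and NK cell markers, all of them lower. Of all genes, 9.23% were lower at that level. The median change of the T and NK cell markers was -0.62. Cd3g, 1 of the 6, lay below the background level of 4.12 on the 3 KO arrays. For lymphatic endothelial markers, 1 of 5 was higher and 0 were lower at that level. Pan-epithelial, goblet and Paneth, B and plasma cell, and myeloid markers (8, 9, 5 and 9 genes above background) had 0 genes called. At an unadjusted p of 0.05, 6, 6, 0 and 0 were lower and 0, 0, 1 and 1 higher. The shares of all genes were 9.23% lower and 7.2% higher. Among the lower genes, Epcam, Agr2 and Zg16 lay below the background level of 4.12 on the 3 KO arrays. They passed the filter through the controls, so their changes are distances to background. Of 16 pan-endothelial markers, Eng rose (0.26 ± 0.044, adjusted p = 0.0211) and Cldn5 fell (-1.28 ± 0.19, adjusted p = 0.0137). At an unadjusted p of 0.05, 8 of the 16 were higher and 1 lower, against 7.2% higher and 9.23% lower of all genes. In 8 of the 16 all KO arrays lay above all controls, against 9.78% of all genes. The median change was 0.15, with a mean level of 10.72 to 10.80 on the KO arrays and 10.68 to 10.77 on the control arrays. Sema3d of the lymphatic, Klrk1 of the T and NK cell, Ms4a1 of the B cell, and Fcer1a and Cpa3 of the myeloid markers were at or below background on all 6 arrays.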

How the data were processed

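Expression was measured on 6 arrays, 3 KO and 3 control, of Affymetrix Mouse Gene 2.0 ST. The authors deposited log2 values, 1 per probe set and array, made with RMA in the oligo package, per the submitters' processing notes; versions are not given in the sources used here. RMA corrects background, normalizes across arrays by quantiles and summarises probes, so values are relative within the 6 arrays. The number of arrays limits the precision.

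Of 41345 probe sets, 23521 carried 1 gene symbol in the platform annotation, 1814 several and 16010 none. Symbols were checked by gene identifier against RefSeq (GRCm38.p6), which changed 0. Each of 22180 genes took its probe set with the highest mean, and 15289 with a mean above 4.12 were kept, a level set from the 90th percentile over 1434 genes for smell, vomeronasal or taste receptors. limma 3.58.1 (R 4.3.3) tested KO against control, with eBayes moderation along a mean-variance trend, two-sided p-values and Benjamini-Hochberg adjustment over the 15289 genes at a threshold of 0.05. Every adjusted p comes from this limma fit or, where named, from an alternative to it. The fit was tested on simulated data. Plots used matplotlib 3.10.9 in Python 3.11.15.

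The rule was to describe genes that passed or had an unadjusted p under 0.05 in full, and the rest by ranges, counts and the widest control ranges; most of the rest were given statistics as well. Of each wider list, genes that passed, or else the 2 with the smallest p, were named. The genes, lists and rules were chosen with earlier results of these data known. Same-numbered samples of the groups did not deviate together (correlations of -0.020, -0.0077 and 0.039 over genes), so numbers were not taken as pairs.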

Additional observations from a re-analysis of the deposited data

How the results depend on the processing

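The median change of the 33 genes kept its sign under all 15 alternatives, and was -0.32 to -0.12 when 1 array was left out. Of the 33 genes, 2 passed with all arrays, 0 to 3 when 1 array was left out, 1 with arrays centred on their median (Jun), 1 with quantile normalization repeated (Jun), 0 without the variance trend and 0 without KO 3 and control 2 together, a setting chosen after seeing the data. Over all genes, 393 passed, against 91 to 379 when 1 array was left out, 139 without the variance trend and 26 without KO 3 and control 2 together. Fewer arrays leave fewer degrees of freedom; the cause of the other shifts was not tested. With the replicate number as a block, which the data gave no ground for, 2 of the 33 passed, Jun (adjusted p = 0.0147) and Gadd45b (adjusted p = 0.0478), and Egr1 did not (adjusted p = 0.0593). Without control 2, Zfp36l1 passed as well (adjusted p = 0.0427). The other background filters, the mean over probe sets and array weights left Jun and Egr1 as the genes that passed.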
